A study of Mus musculus with 4 samples.

Results

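Expression of 8 surface markers of adipose progenitors was followed in the epididymal fat pad of male C57BL/6J mice: Pdgfra, Cd34, Ly6a, Thy1, Dpp4, Pi16, Icam1 and Fap. The genes were chosen by symbol from 24421 gene symbols measured by poly(A) RNA sequencing. All 8 passed the minimum expression of 0.5 CPM, a level proportional to the reads of a gene and scaled for library size, in at least 2 of the 4 libraries, as did 14106 genes in total. The mice were wild type. The control group (Ctrl, 2 libraries) had received high-fat diet (HFD) without a break for 14 weeks, starting at 10 weeks of age. The weight cycling group (WC1, 2 libraries) had received HFD for 8 weeks from 8 weeks of age, standard diet for 2 weeks and HFD for a further 6 weeks. By these schedules both groups had eaten HFD for 14 weeks in all and were 24 weeks old at the end. The groups therefore differ in the break, in the age at the first HFD and in the time since the last change of diet, which cannot be told apart. The labels do not say in so many words that each library is a separate mouse, so the p-values below measure only the spread between these libraries, which may be technical.

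Adipose progenitors are stromal cells of the fat pad that can divide and turn into adipocytes, and they also lay down much of the extracellular matrix. Pdgfra, a receptor for platelet-derived growth factor, is the usual marker of these cells and of adipose fibroblasts. Cd34, a sialomucin, Ly6a, the GPI-anchored protein Sca-1, and Thy1, the GPI-anchored protein CD90, are used with it in cell sorting. Dpp4, a membrane dipeptidase, and Pi16, a secreted or membrane-bound peptidase inhibitor-like protein, mark multipotent progenitors of the interstitium that lies between fat lobules. Icam1, an adhesion molecule for leukocyte integrins, marks more committed preadipocytes, and Fap, a serine protease related to Dpp4, marks activated fibroblasts. None of these genes belongs to progenitors alone. Cd34 and Ly6a are also made by endothelial cells, Icam1 by endothelial cells and macrophages, Thy1 and Dpp4 by T cells, and Dpp4 by mesothelium. In RNA from whole tissue, fewer cells of a type and less RNA per cell cannot be told apart.

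The DNA just upstream of an annotated RefSeq start is shown for 3 of the markers: Pdgfra and Icam1, which were lower in WC1, and Dpp4, the marker with higher values in both WC1 libraries. The windows are the 250 bases before a RefSeq start on build GRCm38.p6, the same assembly as the mm10 named by the submitters, and are written 5′ to 3′ along the gene's strand. RefSeq promoter entries were matched for 5 of the 8 genes. Both strands were searched for 3 motifs, with the letters GGAAATTCC for an NF-kB site, TATAAA for the box of that name found in some core promoters, and TGACTCA for an AP-1 site, and capitals mark the matches. Icam1 lies on the plus strand at chr9:21015690-21015939, Dpp4 on the minus strand at chr2:62412232-62412481, and Pdgfra on the plus strand at chr5:75152001-75152250. The start used by this table need not be the outer end of the gene as given below: the Pdgfra window lies inside the gene, and the Dpp4 window overlaps its outer end.
Icam1: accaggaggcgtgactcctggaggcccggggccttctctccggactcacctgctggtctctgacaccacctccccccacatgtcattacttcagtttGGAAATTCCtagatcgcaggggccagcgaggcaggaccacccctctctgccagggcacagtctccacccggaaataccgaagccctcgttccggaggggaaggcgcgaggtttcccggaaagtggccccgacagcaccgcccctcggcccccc
Dpp4: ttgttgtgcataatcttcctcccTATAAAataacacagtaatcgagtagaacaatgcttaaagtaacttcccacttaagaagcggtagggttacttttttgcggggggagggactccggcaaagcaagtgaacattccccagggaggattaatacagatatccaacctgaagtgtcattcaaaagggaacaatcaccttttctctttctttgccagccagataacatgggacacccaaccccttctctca
Pdgfra: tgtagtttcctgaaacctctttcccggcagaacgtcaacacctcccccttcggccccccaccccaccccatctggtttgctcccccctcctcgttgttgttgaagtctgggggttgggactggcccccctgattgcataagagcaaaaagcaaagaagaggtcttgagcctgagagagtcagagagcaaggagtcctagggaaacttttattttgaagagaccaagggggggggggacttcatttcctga
Positions are counted back from the start, with -1 the base just before it. The Icam1 window held the NF-kB letters from position -153, as did 0.286% of 32851 promoter windows of this length. The Dpp4 window held the TATAAA letters from position -227, letters found in 12.4% of windows. The AP-1 letters, present in 4.46% of windows, were in none of the 5 windows, and the windows of Pdgfra, Cd34 and Pi16 held no match. The motifs were picked with the Icam1 sequence in view, and a match describes letters only.

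All 8 markers were well covered. Each had between 1141 and 18831 reads per library, so that counting error was at most 2.96% of a value. Levels of different genes were set side by side as TPM, a scale that corrects for transcript length. Ly6a was the most abundant at 414 ± 12 TPM in Ctrl (SD, n = 2), higher than 96.9% of the tested genes by mean TPM, and Cd34 followed at 164 ± 1.6 TPM. Pi16 (99.1 ± 2.5 TPM) and Thy1 (82.4 ± 1.3 TPM) came next, ahead of Icam1 (46.5 ± 0.55 TPM) and Pdgfra (28.9 ± 0.64 TPM). Fap at 19.7 ± 0.34 TPM and Dpp4 at 10.3 ± 0.39 TPM were the lowest. Pdgfra, the marker that defines the population, thus stood in the middle of the tested genes, above 60.5% of them. The order was the same in WC1. Neighbours in the order did not overlap in either group, except that Fap (14.4 and 15.8 TPM) and Dpp4 (11.3 and 16.6 TPM) overlapped in WC1.

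Of the 8 markers, 5 were lower in WC1 than in Ctrl: Thy1, Ly6a, Pdgfra, Fap and Icam1, which fell to between 59.1% and 71.5% of their Ctrl means in CPM. Cd34, Dpp4 and Pi16 did not pass the test, and 0 markers were higher by limma, edgeR or DESeq2, or at an unadjusted p under 0.05 in limma (Dpp4, the 1 marker with a positive value, had an unadjusted p of 0.169 by limma). The test was a linear model in limma on log2(CPM + 1), with p-values adjusted over all 14106 genes and a threshold of 0.05, which called 7.71% of the tested genes lower and 10.2% higher. In 7 of the 8, all but Dpp4, both WC1 libraries lay below both Ctrl libraries, a pattern seen in 36.6% of the tested genes. The median log2 fold change of the 8 was -0.49, against -0.02 over all tested genes, of which 52.8% had a value below 0. The 5 decreases passed the threshold in each of 10 alternative settings that used all 4 libraries, in which the adjusted p was at most 0.0466. They lost it when either Ctrl library was left out, with adjusted p between 0.129 and 0.200. Those fits called only 6 genes (without Ctrl 1) and 12 genes (without Ctrl 2) in all, against 2531 with 4 libraries, and all 5 markers had an unadjusted p under 0.05 in both.

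**Figure D1:**
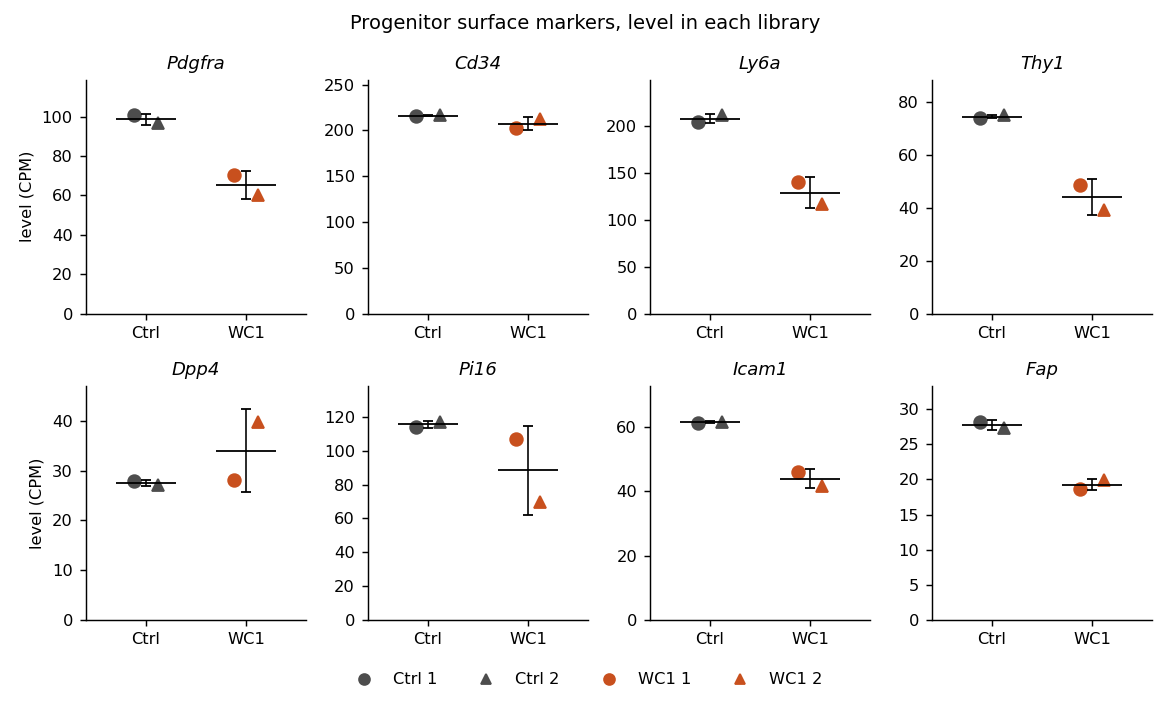
Level of each surface marker in CPM (vertical axes from 0) in the 2 Ctrl and 2 WC1 libraries. Points are libraries, horizontal bars are group means and vertical bars are SD over 2 libraries. In Pdgfra, Ly6a, Thy1, Icam1 and Fap both WC1 libraries sit well below both Ctrl libraries, Cd34 is nearly level, and in Dpp4 and Pi16 one WC1 library lies near the controls and the other away from them.

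Among the pan-progenitor markers, Pdgfra (chr5:75151322-75198206, plus strand) measured 101 and 96.6 CPM in Ctrl 1 and Ctrl 2, and 70.1 and 60.2 CPM in WC1 1 and WC1 2. The 2 groups were clearly apart, with the higher WC1 library well under the lower Ctrl library. Pdgfra fell by 0.59 ± 0.094 on the log2 scale (SE, adjusted p = 0.0239 by limma, 95% interval from -0.84 to -0.35), and 5.34% of tested genes had a lower fold change. Ly6a (chr15:74994877-74998031, minus strand), the most abundant of the 8, measured 204 and 211 CPM in Ctrl and 140 and 117 CPM in WC1. The groups did not overlap, and Ly6a fell by 0.69 ± 0.11 on the log2 scale (SE, adjusted p = 0.0228 by limma). Thy1 (chr9:44043384-44048579, plus strand) measured 74.0 and 74.8 CPM in Ctrl and 48.7 and 39.2 CPM in WC1. It had the lowest fold change of the 8 and fell by 0.75 ± 0.12 on the log2 scale (SE, adjusted p = 0.0228 by limma), with 3.30% of tested genes lower still. In all of these the second WC1 library was the lowest of the 4.

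Cd34 (chr1:194938821-194961292, plus strand) stood apart from the other pan-progenitor markers. It measured 216 and 216 CPM in Ctrl and 202 and 212 CPM in WC1. The WC1 mean was 96.0% of the Ctrl mean, the log2 fold change was -0.06 ± 0.070 (SE, adjusted p = 0.573 by limma), and the 95% interval ran from -0.24 to 0.12, so that a fall of the size seen in Pdgfra lay outside it. The sign depended on the scaling. The log2 fold change of Cd34 was 0.08 in TPM (adjusted p = 0.440) and 0.01 after quantile normalization (adjusted p = 0.961). Endothelial cells also make Cd34, and 11 of 15 endothelial markers were higher in WC1, among them Cldn5, Kdr, Tek and Aqp1, with a summed level of 826 to 926 CPM in Ctrl and 1626 to 2173 CPM in WC1. Ly6a and Icam1, which endothelial cells also make, were lower in WC1 (log2 fold changes -0.69 and -0.48). The part of endothelial cells in the levels of these markers was not tested.

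The interstitial progenitor markers Dpp4 and Pi16 were split by the WC1 libraries. Dpp4 (chr2:62330073-62412315, minus strand) measured 27.9 and 27.1 CPM in Ctrl, 28.1 CPM in WC1 1 and 39.8 CPM in WC1 2. WC1 1 was thus at the level of the controls, and WC1 2 alone was high. The log2 fold change was 0.27 ± 0.17 (SE, adjusted p = 0.298 by limma). It was 0.03 without WC1 2 and 0.52 without WC1 1, fits that leave 1 WC1 library and so are given as effect sizes only. Pi16 (chr17:29318796-29328903, plus strand) measured 114 and 117 CPM in Ctrl, 107 CPM in WC1 1 and 70.0 CPM in WC1 2. Here WC1 1 was close to the controls and WC1 2 was low. The log2 fold change of Pi16 was -0.42 ± 0.20 (SE, adjusted p = 0.201 by limma), -0.11 without WC1 2 and -0.72 without WC1 1. So the same library was the highest of the 4 for one interstitial marker and the lowest for the other.

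On the log2 scale WC1 2 differed from WC1 1 by 0.49 for Dpp4 and by -0.61 for Pi16. These gaps were larger than those of 92.3% and 95.7% of the tested genes, whose median was 0.14. In the 6 other markers the gap was between -0.31 (Thy1) and 0.08 (Fap), and between the Ctrl libraries no marker differed by more than 0.06. The same 2 libraries differed in markers of several cell types. Of 15 macrophage markers 14 were lower in WC1 2 (summed level 6185 against 8816 CPM). None of 15 endothelial markers (2173 against 1626 CPM) and 2 of 14 adipocyte markers (22916 against 16340 CPM) were lower there. These differences ran the same way as those between WC1 and Ctrl. All 11 mesothelial markers had higher values in WC1 2 than in WC1 1, with a summed level of 259 against 121 CPM, while Ctrl 1 and Ctrl 2 held 194 and 149 CPM. Msln, a surface antigen of the mesothelium, measured 33.7 CPM in WC1 2 and 12.1 CPM in WC1 1. It was chosen after its values were seen. The 6 tested B cell markers were also all higher in WC1 2, with summed levels of 41.5 against 20.5 CPM. The T cell list, whose cells make Dpp4, summed to 174 CPM in WC1 1 and 125 CPM in WC1 2. Most of this was Il7r, at 153 and 95.7 CPM, and only 3 of the 13 genes were lower in WC1 2. The part of these cells in the Dpp4 and Pi16 values was not tested.

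Icam1 (chr9:21015940-21028814, plus strand), the marker of committed preadipocytes, measured 61.3 and 61.7 CPM in Ctrl and 46.1 and 41.8 CPM in WC1. Both groups were tight and did not overlap. Icam1 fell by 0.48 ± 0.078 on the log2 scale (SE, adjusted p = 0.0247 by limma). Fap (chr2:62500936-62575509, minus strand) lies 88.6 kb from its relative Dpp4. It measured 28.3 and 27.3 CPM in Ctrl and 18.7 and 19.9 CPM in WC1, and fell by 0.51 ± 0.080 on the log2 scale (SE, adjusted p = 0.0239 by limma). The neighbouring pair thus had opposite signs, although the Dpp4 value did not pass the test. Pdgfra, Cd34, Dpp4, Pi16 and Icam1 each overlap annotated genes, most of them antisense. The library kit keeps the strand, but no source used here says whether the counting did. The 2 overlapping genes found in the matrix, Mir7025 in Pdgfra and Gm16897 at Cd34, had mean levels of 0.0504 and 0.198 CPM.

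**Figure D2:**
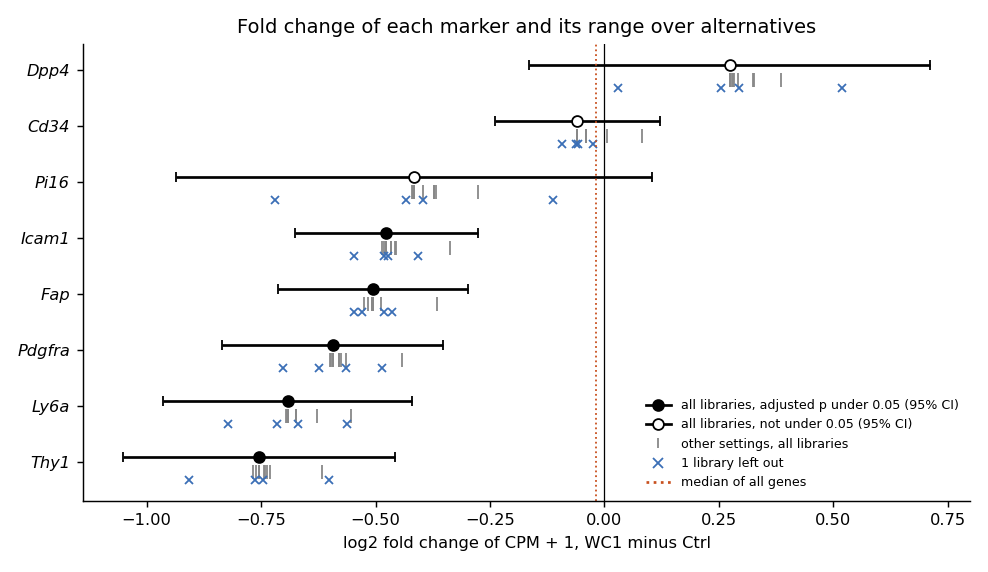
Log2 fold change of CPM + 1, WC1 minus Ctrl, for each marker (horizontal axis), with circles and bars for the estimate from all 4 libraries and its 95% interval, filled where the adjusted p was under 0.05. Grey ticks are alternative settings with all libraries, crosses are fits with 1 library left out, and the dotted line is the median of all tested genes. The 5 filled circles lie between -0.75 and -0.48, and the crosses of Dpp4 (0.03 to 0.52) and Pi16 (-0.72 to -0.11) spread the most.

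In TPM the whole distribution was shifted upwards, with a median log2 fold change over all genes of 0.10 in place of -0.02, and the test called 2054 genes higher and 583 lower, in place of 1443 and 1088 in CPM. The same 5 markers passed as lower. Relative to the all-gene median of each scale, the log2 fold change in TPM was -0.72 for Thy1, -0.66 for Ly6a, -0.54 for Pdgfra, -0.47 for Fap and -0.44 for Icam1. Cd34 was at -0.02, Pi16 at -0.38 and Dpp4 at 0.28 on this scale.

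The ratio of each marker to Pdgfra within a library removes any scaling of the library and any change that is common to the pair. The question was whether the other markers kept their proportion to the marker that defines the cells. Ly6a stood at 13.8 and 14.9 times the Pdgfra level (TPM) in Ctrl and at 13.6 and 13.2 times in WC1, a mean log2 difference of -0.10. For Thy1 the ratio was 2.78 and 2.93 in Ctrl and 2.63 and 2.46 in WC1, and for Icam1 1.57 and 1.65 in Ctrl and 1.70 and 1.79 in WC1. These ratios did not overlap between the groups, yet their mean log2 differences were small, at -0.17 for Thy1 and 0.12 for Icam1. The share of all tested genes whose ratios to Pdgfra also do not overlap was not counted. Lack of overlap alone therefore does not set a marker apart from other genes. Fap had ratios of 0.681 and 0.686 in Ctrl and 0.647 and 0.799 in WC1, which overlapped, as did those of Pi16. Cd34 and Dpp4 parted from Pdgfra. Pdgfra itself stood at -0.54 relative to the all-gene median in TPM, so a gene at that median would also rise against it. Cd34, at -0.02 on that scale, was close to such a gene. Cd34 stood at 5.57 and 5.82 times Pdgfra in Ctrl and at 7.50 and 9.17 times in WC1, a log2 difference of 0.54. For Dpp4 the ratio was 0.360 and 0.352 in Ctrl and 0.508 and 0.843 in WC1, a log2 difference of 0.88, and WC1 1 was above the controls here as well. With 4 libraries the smallest two-sided p of the exact permutation test is 0.333, reached by 5 of the 7 ratios (Cd34, Ly6a, Thy1, Dpp4 and Icam1, 0.467 after adjustment over 7), so the test could not reach 0.05. Leaving out 1 library gave 0.40 to 0.69 for Cd34 and 0.51 to 1.24 for Dpp4, and Pi16 and Fap changed sign (-0.02 without WC1 1 and -0.08 without WC1 2, respectively).

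**Figure D3:**
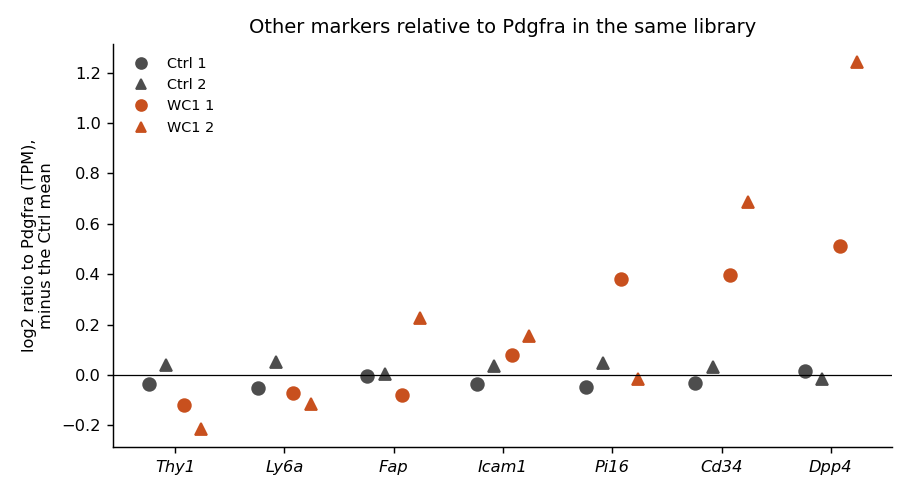
Log2 ratio of each other marker to Pdgfra in the same library (TPM), minus the mean of the 2 Ctrl libraries, with 1 point per library. Thy1, Ly6a and Icam1 stay close to the controls, with mean differences between -0.17 and 0.12, while the WC1 libraries of Cd34 and Dpp4 lie above them, with mean differences of 0.54 and 0.88. Pdgfra itself was at -0.54 relative to the all-gene median in TPM, so a gene at that median would also lie above the controls.

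The markers were next set beside lists of genes of the same cells, each without the 8 markers. Of 30 pan-progenitor and fibroblast genes, 7 fell and 2 rose, with a median log2 fold change of -0.09. The decreases included S100a4, a calcium-binding protein of motile fibroblasts and of macrophages (log2 fold change -1.38), Pdpn, the mucin-like podoplanin (-1.20), and Entpd2, an ectonucleotidase (-0.52). Gsn, the actin-severing gelsolin and the most abundant of the list, had a log2 fold change of 0.16 and did not pass. Pdgfrb, the other receptor of the same growth factor family and a marker shared with pericytes, was near level at 148 and 142 CPM in Ctrl and 154 and 145 CPM in WC1 (log2 fold change 0.05, adjusted p = 0.658 by limma). By sign, the genes of this list did not all share the direction of Pdgfra, Ly6a and Thy1: 17 had negative and 13 positive fold changes. Of the genes that passed, 7 were lower and 2 higher, whereas over all tested genes 7.71% were lower and 10.2% higher.

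The Dpp4+ interstitial progenitor list held more increases than decreases. Of its 20 genes, 7 rose and 2 fell, and the median log2 fold change was 0.40. Sema3c, a secreted semaphorin (49.4 and 49.9 CPM in Ctrl, 102 and 118 CPM in WC1), and Smpd3, a neutral sphingomyelinase (19.4 and 21.0 CPM in Ctrl, 47.5 and 56.4 CPM in WC1), rose by 1.13 and 1.32 on the log2 scale. Uchl1, a deubiquitinase, was the largest change of the list and went down, from 68.8 and 60.5 CPM to 11.4 and 8.67 CPM, a log2 fold change of -2.58 (adjusted p = 0.0057 by limma). Fbn1, the microfibril protein fibrillin-1 and the most abundant of the list, had a log2 fold change of 0.06 and did not pass. These 3 genes were named for their small p, which asks both WC1 libraries to depart from the controls. Other genes of the list differed between the WC1 libraries, such as Fbn1, at 653 CPM in WC1 1 and 469 CPM in WC1 2. Within WC1, 14 of the 20 genes were lower in library 2 than in library 1, as Pi16 was and Dpp4 was not. In the pan-progenitor and fibroblast list it was 21 of 30, so the count was not particular to interstitial genes. In the Icam1+ committed preadipocyte list it was 5 of 18.

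**Figure D4:**
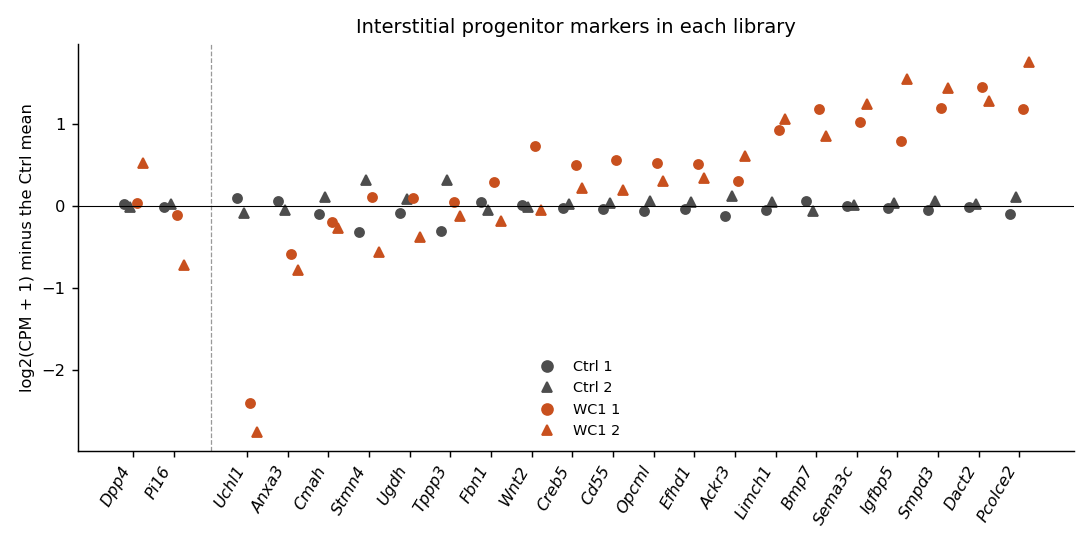
Log2(CPM + 1) minus the Ctrl mean in each library for Dpp4 and Pi16 (left of the dashed line) and for the 20 other interstitial progenitor genes, ordered by fold change. Uchl1 is low in both WC1 libraries and Sema3c and Smpd3 are high in both, Dpp4 and Pi16 depart from the controls mainly in WC1 2, and several other genes of the list also differ between the WC1 libraries.

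Of 18 tested genes of the Icam1+ committed preadipocyte list, 4 rose and 2 fell, with a median log2 fold change of 0.33, while Icam1 itself fell. Peg3, an imprinted transcription factor gene, and Mest, an imprinted gene linked to the expansion of fat, rose, with log2 fold changes of 2.02 and 1.53. Peg3 measured 8.44 and 7.50 CPM in Ctrl and 34.4 and 36.3 CPM in WC1, and Mest 265 and 316 CPM in Ctrl and 785 and 895 CPM in WC1. Mest is also made by adipocytes, like other genes of this list, and 12 of 14 adipocyte markers were higher in WC1. The share of adipocytes in these values was not tested. Cxcl14, a chemokine, fell (log2 fold change -1.32), and Lpl, the lipoprotein lipase that adipocytes make in large amounts, had a log2 fold change of 0.26 and did not pass. Of 13 genes of the F3+ adipogenesis-regulatory cell list, 2 fell and 2 rose. Cygb, the fibroblast globin cytoglobin, fell (-0.46), the transcription factor Meox1 rose (0.45), and the matrix proteoglycan Bgn (-0.53) did not pass.

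The activated states that Fap is used for did not show a single direction. Of 15 tested fibro-inflammatory progenitor genes, the alarmin Il33 fell (log2 fold change -1.18), the matrix proteins Tnc and Thbs1 rose (1.20 and 0.76), and Fn1, fibronectin, did not pass (0.24). Of 16 myofibroblast genes, 4 rose and 2 fell. Acta2, smooth muscle actin (1.19), and the fibril-associated collagen Col12a1 (0.72) were among those that rose, Spp1, osteopontin, which macrophages also make, fell (-2.70), and Col3a1, a fibrillar collagen, had a log2 fold change of -0.36 and did not pass. Acta2 is also a pericyte and smooth muscle marker, and 8 of 12 genes of that list rose. The share of pericytes in these values was not tested.

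The families and binding partners of the markers were described in the same way. Among the ligands and receptors of the PDGF family, Pdgfd, a ligand of the beta receptor, rose from 5.75 and 5.30 CPM to 8.85 and 8.93 CPM (log2 fold change 0.60, adjusted p = 0.0264 by limma). Pdgfa (0.08), Pdgfb (0.00) and Pdgfc (-0.20), the ligands that can bind the alpha receptor, and the receptor-like Pdgfrl (-0.66) did not pass. Among prolyl peptidases related to Dpp4 and Fap, Dpp7, a lysosomal dipeptidase, fell (log2 fold change -1.01, adjusted p = 0.0171 by limma), while Dpp8, Dpp9, Prep and Prcp, with log2 fold changes between -0.08 and 0.07, did not pass. Of 10 other Ly6-domain genes tested, Cd59a, an inhibitor of complement, and Gpihbp1, the endothelial carrier of lipoprotein lipase, rose (1.12 and 1.02), the urokinase receptor Plaur was 1 of 2 that fell (-1.14), and the broadly made Ly6e did not pass (0.20).

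Among the integrin chains that bind Icam1 or Thy1, Itgb2 and Itgam fell. Itgb2, the beta chain of the leukocyte integrins that bind Icam1, had a log2 fold change of -1.11 and Itgam, an alpha chain that pairs with it, of -0.96. Icam2, an endothelial relative of Icam1, rose instead, from 9.91 and 10.2 CPM to 19.0 and 23.8 CPM (log2 fold change 1.01). Of 9 genes of the ICAM family and its integrins, 4 fell and 1 rose. Of the 9 genes tested as partners of Thy1, integrin chains and a syndecan, 3 fell and none rose, Itgam and Itgb2 again and Sdc4, a heparan sulphate proteoglycan (-0.61), and all 9 fold changes were negative. The 4 tested relatives of Cd34 and selectins that bind this family had positive fold changes that did not pass, among them Podxl, podocalyxin (0.71, adjusted p = 0.0602 by limma).

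Markers of other cell types moved with the groups, which bears on genes measured in whole tissue. Of 15 macrophage markers, 7 were lower in WC1 and none higher, among them Mrc1 (-0.89), Mertk (-0.60), C1qa (-0.85) and Lyz2 (-1.25), and their summed level was 13448 to 14618 CPM in Ctrl and 6185 to 8816 CPM in WC1. Of 14 adipocyte markers, 12 were higher, with a median log2 fold change of 1.03 and a summed level of 7779 to 9911 CPM in Ctrl and 16340 to 22916 CPM in WC1. No T cell or mesothelial marker passed in either direction, and 1 of 6 B cell markers, Cd79b, was higher. Epididymis, the neighbouring organ, was nearly absent, with 8 of its 10 markers at 0 in all libraries and a summed level of at most 3.13 CPM, in WC1 1. What part these differences had in the lower values of the 5 surface markers was not tested.

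**Figure D5:**
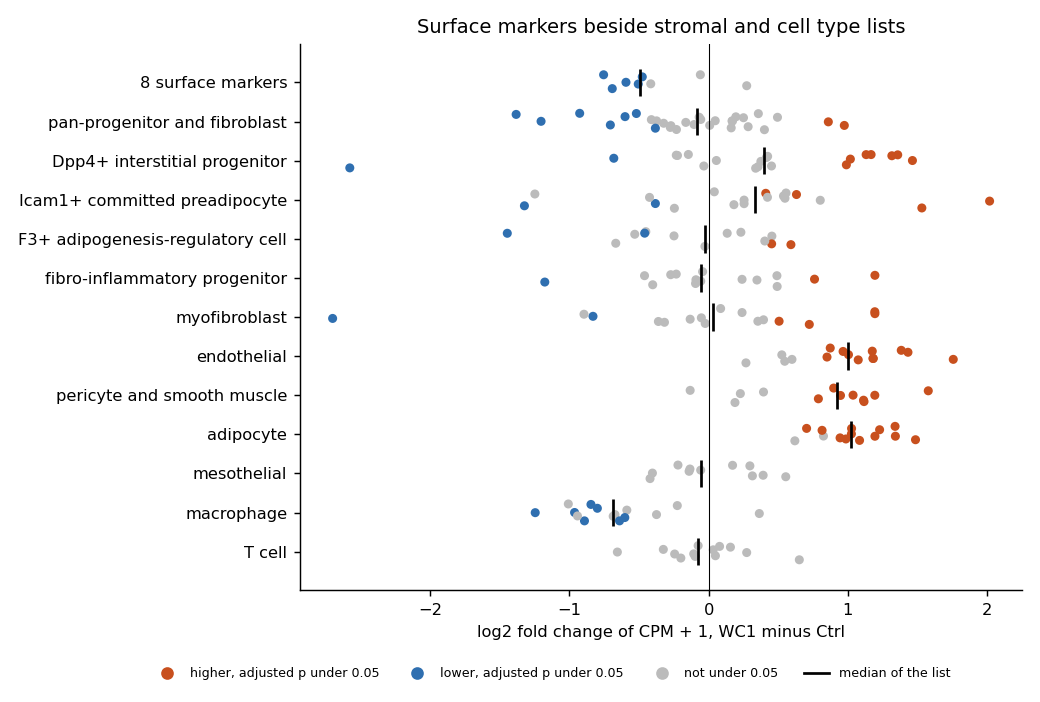
Log2 fold change of CPM + 1, WC1 minus Ctrl, of single genes (points) in the 8 surface markers and in 12 gene lists (rows), with black bars for the median of each list. The median of the 8 markers lies at -0.49, that of the macrophage list at -0.69, and those of the endothelial, pericyte and adipocyte lists between 0.92 and 1.03, while the progenitor lists spread on both sides of 0.

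For each marker the list genes with the most similar profile were found by the root mean square difference of log2(CPM + 1), centred on each gene's mean, over the 4 libraries and 229 genes. Pdgfra was nearest to Mertk, a receptor of macrophages (0.0196), and to Dcn, the fibroblast proteoglycan decorin (0.0419). Thy1 was nearest to C1qa and C1qc, complement genes of macrophages (0.0550 and 0.0569), and Ly6a to Cd14 (0.0614) and Anxa3 (0.0626). Icam1 was nearest to Cygb (0.0200) and Entpd2 (0.0364), and Fap to Entpd2 (0.0608) and Vcam1 (0.0698). The nearest to Cd34 were Ly6c1 (0.0341) and Zap70 (0.0359), and the nearest to Pi16 were Itgb3 (0.0323) and the microfibril gene Mfap5 (0.0526). Dpp4 was nearest to Bmp4 (0.0672) and Nt5e (0.0698). These are descriptions over 4 libraries that share their group, depth and tissue makeup. Zap70 (0.524 to 0.747 CPM) and Nt5e (0.678 to 1.64 CPM) lay near the 0.5 CPM minimum, where log2(CPM + 1) understates changes.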

How the data were processed

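Gene expression had been measured in epididymal adipose tissue in 4 libraries, 2 Ctrl and 2 WC1, grouped by their labels. The submitters' processing notes name fastp, HISAT2, StringTie and mm10. No source used here names the read counter or annotation. The authors deposited a signal matrix called CPM, which is proportional to reads (100% of values were whole reads within 0.01 read), and a TPM matrix, in which reads are corrected for length. Recovered reads came to between 61465029 and 90965297 per library, and intervals and errors from reads cover counting only. Genes that reached 0.5 CPM in 2 or more libraries were tested with limma 3.58.1 in R 4.3.3 on log2(CPM + 1), two-sided, with a variance trend and Benjamini-Hochberg adjustment over 14106 genes. This scale understates changes of low genes. The fit was checked on simulated data. edgeR 4.0.16 and DESeq2 1.42.0 on recovered reads were alternatives, as were other filters, pseudocounts, scalings and left-out libraries. The 8 markers and the 21 gene lists were chosen with earlier results of these data known. Besides the markers, genes were named by rule: from each list, up to 3 with the smallest unadjusted p and the one with the highest mean CPM, all from lists of under 8 tested genes, and the 2 nearest profiles per marker. One gene that this rule selects is not reported here.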

Additional observations from a re-analysis of the deposited data

How the results depend on the processing

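The number of markers called lower was 5 in all 10 alternatives that used every library, and ranged from 0 (without Ctrl 1 or without Ctrl 2) to 6 (without WC1 1, which added Pi16) when 1 library was left out. The number called higher ranged from 0 to 1 (Dpp4, without WC1 1). Over all genes 2531 were called, against 1320 with no filter on low values and 3861 by DESeq2, and between 6 and 5172 with 1 library left out. Such a fit takes the lone library of a group to vary like the other group. The cause was not tested. Cd34 reversed to 0.081 in TPM and to 0.0062 after quantile normalization, and passed the test in no alternative. Ctrl and WC1 share the numbers 1 and 2 in the labels, with nothing to say that a number stands for a common litter or day. With the number as a replicate block, 5 markers were again called lower and 0 higher (Pdgfra adjusted p = 0.0122, Thy1 adjusted p = 0.0133, both by limma) and 3266 genes were called in all. The differences between the libraries of a group had a correlation across genes of 0.19, and 2 pairs are too few to tell a pairing. Counting error was at most 2.96% of a marker's value in a library, and with 2 libraries per group the spread itself is known only roughly.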

Other observations

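The erythroid list held values that cannot be read gene by gene. Hba-a2 measured 179 and 188 CPM in Ctrl, 0.164 CPM in WC1 1 and 231 CPM in WC1 2, while Hba-a1 measured 2.49 and 3.42 CPM in Ctrl, 241 CPM in WC1 1 and 51.8 CPM in WC1 2. These genes are near-identical copies between which reads can be split, so the single call in the list, Hba-a1 higher in WC1, is uncertain. Alas2, the haem synthesis enzyme of red cell precursors, which has no such copy, measured 4.56 and 3.37 CPM in Ctrl and 5.92 and 6.66 CPM in WC1 and did not pass (adjusted p = 0.0685 by limma).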
